A study of Mus musculus with 8 samples.

Results

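Group 2 innate lymphoid cells (ILC2) of the mouse colon are described here through the 503 cells to which the authors gave the class T cells and the subtype ILC2, out of 53080 cells in all and 5809 in that class. The other subtypes of the class are Activated (1177 cells), IELs (302), ILC1-NK (342), ILC3 (74), Inactive (1299), Memory (1247), Proliferative (78) and Tregs (412), and another 375 cells of the class were named doublets. Distal colonic mucosa of 8 mice, all 8 weeks of age, was dissociated, cleared of cells that bind annexin V and sequenced by droplet capture of transcript 3′ ends, with all libraries made on the same day. Counts are of UMIs (unique molecular identifiers, each standing for 1 captured transcript).

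The 4 KO-labelled mice (mice 2, 3, 6 and 7) have the genotype Vil1::Cre;Spry2-f/f, in which Cre recombinase, driven by the Villin promoter, meets a floxed Spry2. The 4 WT-labelled mice (mice 1, 4, 5 and 8) are their littermates, which carry the floxed Spry2 and no Cre. Spry2 encodes Sprouty2, which dampens signals from receptor tyrosine kinases. The Villin promoter is active in intestinal epithelium, so ILC2 are not cells in which Cre is meant to act, and ILC2 of both groups carry the floxed gene. Which part of Spry2 is floxed is not given in the sources used here, and 3′ counts cannot tell a transcript that lacks an internal part from a whole one. Spry2 (ENSMUSG00000022114; chr14:105891947-105896819, minus strand, mm10) had 10.4, 13.3, 15.7 and 49.3 CPM (counts of the gene per 1000000 UMIs of the summed cells) in epithelial cells of KO-labelled mice 2, 3, 6 and 7, against 11.2, 17.6, 27.7 and 37.6 CPM in those of WT-labelled mice 1, 4, 5 and 8. The groups overlapped, so Spry2 counts do not check the labels. In ILC2 themselves 15 of 328 cells from KO-labelled mice and 8 of 175 cells from WT-labelled mice held a Spry2 UMI.

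ILC2 are tissue-resident lymphocytes without an antigen receptor that develop under the transcription factor GATA3. Epithelial alarmins, among them interleukin-33 and interleukin-25, activate them through the receptors encoded by Il1rl1 and Il17rb, and they answer with type 2 cytokines such as interleukin-5 and interleukin-13 and with the growth factor amphiregulin. In the gut they are known for their part in defence against worms, in mucus and tuft cell responses and in repair of the epithelium.

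Libraries held 17037906 to 37300028 UMIs per mouse. They differed in a way that genotype does not explain: cells with at least 50% mitochondrial UMIs made up 53.5 to 79.6% of the epithelium in mice 1 to 4 and 11.1 to 37.2% in mice 5 to 8, and both sets of mice hold 2 KO-labelled and 2 WT-labelled animals. Across all cells 356 barcodes occurred in more than 1 mouse, and among the ILC2 0 did. The ILC2 had a median of 2871 UMIs (range 557 to 7294), 1279 genes and 4.71% mitochondrial UMIs. The sums over the ILC2 of a mouse, which are the unit of the tests between genotypes, held 65242 to 442859 UMIs. Cells of 1 mouse share their source, so the mouse is the replicate throughout.

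Il5, Il13 and Il1rl1 are the ILC2 genes for which the sequence before the gene start is shown. GATA factors are known to act at the type 2 cytokine genes. Each run is the 150 bases before the RefSeq gene start (GRCm38.p6), read 5′ to 3′ on the strand of the gene. Capitals mark AGATAA or AGATAG on either strand, which are among the letters GATA factors prefer.
Il5 (chr11:53720644-53720793, plus strand): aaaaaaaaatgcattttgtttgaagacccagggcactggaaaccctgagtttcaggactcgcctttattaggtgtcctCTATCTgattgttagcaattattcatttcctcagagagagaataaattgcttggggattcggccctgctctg
Il13 (chr11:53634703-53634852, minus strand): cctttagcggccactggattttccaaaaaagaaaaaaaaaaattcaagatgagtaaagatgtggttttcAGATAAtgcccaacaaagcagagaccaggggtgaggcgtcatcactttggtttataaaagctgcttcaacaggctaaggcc
Il1rl1 (chr1:40429420-40429569, plus strand): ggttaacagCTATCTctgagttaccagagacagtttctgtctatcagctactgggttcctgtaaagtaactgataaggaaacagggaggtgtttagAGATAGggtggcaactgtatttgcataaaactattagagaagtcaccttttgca
The Il5 window holds 1 such match, 72 bases before the start, and the Il13 window 1 match, 81 bases before it. Il1rl1 holds 3 matches within 250 bases, at 217, 141 and 54 bases before the start, of which the last 2 lie in the run shown. RefSeq gives a second start for Il1rl1, whose window (chr1:40439479-40439628, not shown) holds 1 match, 103 bases before it. In the windows of Gata3, Il17rb and Il4, which were searched as well, these letters were not found. Forms that start with T in place of the first A were not counted. Such forms occur in the Il4 window and, unmarked, in the Il1rl1 run shown. The genes shown are thus those with a match. Lower levels in the other subtypes do not set them apart, since Gata3, Il17rb and Il4 had these too. Of all 32851 promoter windows of 250 bases, 16.5% hold at least 1 match, and a match is a run of letters, not a measured binding site. Il4, Il13, Rad50 and Il5 are neighbours in GENCODE M21: Il4 (chr11:53602982-53618669), Il13 (chr11:53631324-53634702) and Rad50 (chr11:53649519-53707319) lie on the minus strand and Il5 (chr11:53720794-53725106) on the plus strand. Il1rl1 is at chr1:40429570-40465415 (plus strand), Gata3 at chr2:9857078-9890034 (minus strand) and Il17rb at chr14:29996135-30008896 (minus strand).

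The cells carried the markers of their label. Gata3, the factor that directs ILC2 development, was read in 82.5% of the 503 cells, Il1rl1, the receptor for interleukin-33, in 59.05%, Il17rb, the receptor for interleukin-25, in 38.2%, and Il5, the eosinophil growth factor, in 19.1%. In B cells (14700 cells without doublets, median 1994 UMIs, against 2871 in ILC2) Gata3, Il1rl1, Il17rb and Il5 were read in 0.170, 0.0272, 0.0068 and 0.0068% of cells. All 4 markers were read in 13 ILC2, 3 of them in 138, 2 in 208, 1 in 118 and none in 26. Pooled over mice, Gata3 had 862 CPM in ILC2, against at most 212 CPM in any other subtype (Proliferative). Il1rl1 had 421 CPM in ILC2, against at most 56.0 CPM (Tregs). Il17rb had 218 CPM, against at most 19.6 CPM (IELs), and Il5 had 186 CPM, against at most 21.6 CPM (Proliferative). In each mouse with at least 10 cells of both kinds, ILC2 lay above every other subtype for all 4 genes; ILC3 could be compared in 4 mice, Memory in 7, Proliferative in 2 and the others in 8. The authors named the cells from these same transcripts, so levels of ILC2 beside the other subtypes are a description without a test.

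**Figure D1:**
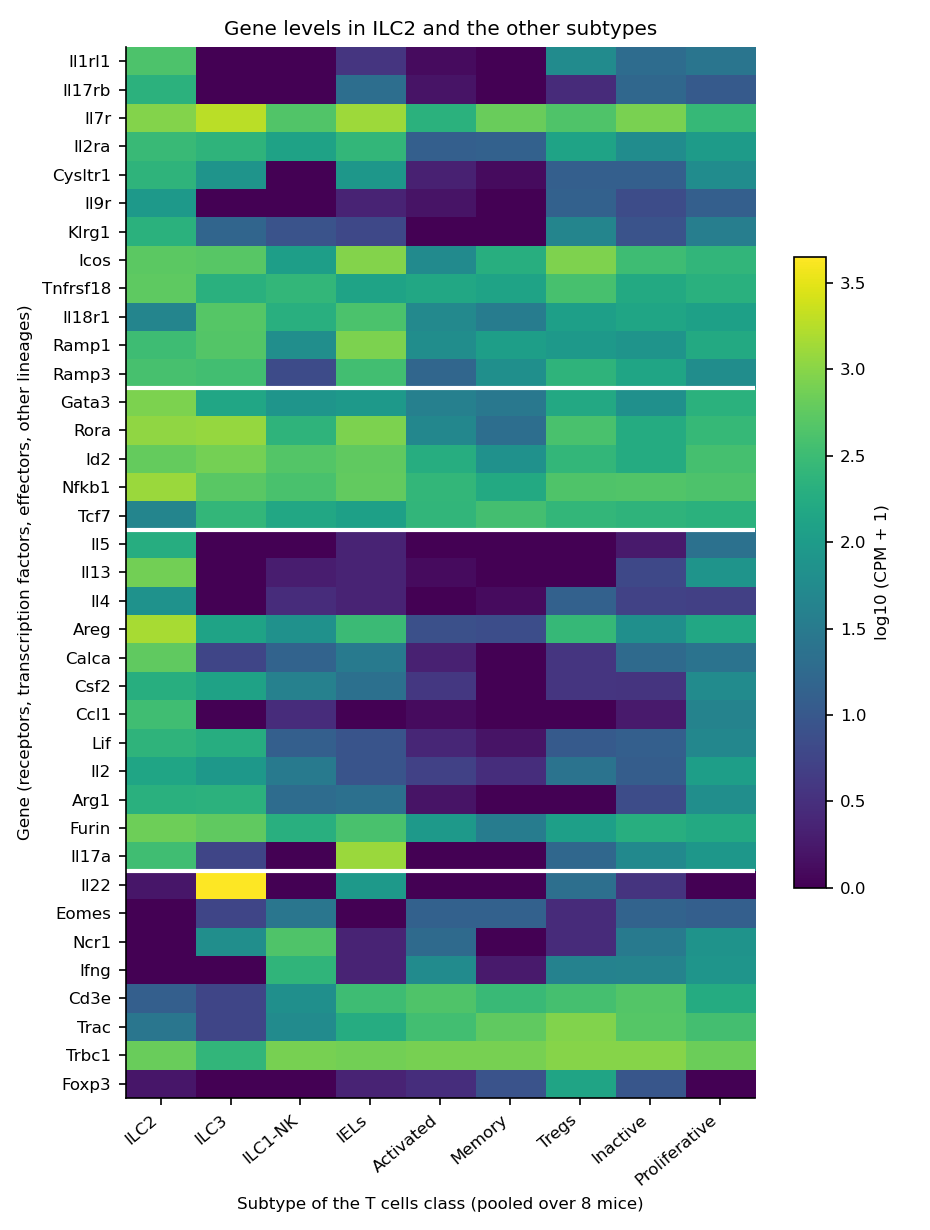
Levels of receptors, transcription factors, effectors and genes of other lineages (rows, from top to bottom) in ILC2 and the other 8 subtypes of the T cells class (columns), as log10 of CPM plus 1 from counts pooled over 8 mice. The ILC2 column is the brightest at Il1rl1, Gata3, Il13, Areg and Calca, and it is dark at Il22, Eomes, Ncr1 and Ifng.

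Among the receptors through which ILC2 are switched on, those for leukotrienes and interleukin-9 also stood highest in ILC2. Cysltr1, a receptor for cysteinyl leukotrienes, had 234 CPM in ILC2 and at most 84.9 CPM elsewhere in the class (IELs), and Il9r had 92.6 CPM, against at most 12.6 CPM (Tregs). Tnfrsf18, which encodes the costimulatory receptor GITR, had 548.5 CPM, against 392 CPM in Tregs, the next highest. Other activating receptors were shared with neighbours. Il7r, the receptor for the survival cytokine interleukin-7, had 946 CPM in ILC2, against 1892 CPM in ILC3 and 1282 CPM in IELs. Icos had 541 CPM in ILC2, against 928 CPM in IELs and 881 CPM in Tregs. Il18r1, a receptor for interleukin-18, had 45.0 CPM in ILC2, which ranked 8 of 9 subtypes, against 480 CPM in ILC3. Of the 22 activating receptors listed, 8 were highest in ILC2. The share of all genes that were highest in ILC2 is not given here, so this count and those of the lists below have no background. Nmur1, the neuromedin U receptor, had 13 UMIs, all of the class in ILC2, and Ptgdr2, the prostaglandin D2 receptor often used to sort ILC2, was not read in any subtype.

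Receptors and signalling brakes that hold ILC2 back were also read. Klrg1, an inhibitory receptor of mature ILC2, had 216 CPM in ILC2, against at most 44.2 CPM (Tregs). Il10ra, a chain of the interleukin-10 receptor, had 93.3 CPM, against at most 24.4 CPM (Tregs), and Ptgir, the prostacyclin receptor, had 76.8 CPM, against at most 9.82 CPM (Proliferative). Dusp1, a phosphatase that turns off MAP kinases, had 1645 CPM, against 917 CPM in ILC3, and Tnfaip3, a brake on NF-κB, had 1358 CPM, against 1129 CPM in ILC1-NK. Ifngr1, through which interferon-γ restrains ILC2, went the other way, at 421.5 CPM in ILC2 and 438 to 1242 CPM in the others. In all, 9 of 22 genes of this list were highest in ILC2 and 3 lowest.

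Receptors for the neuropeptide CGRP are made from the receptor protein Calcrl and an accessory protein, Ramp1, while Ramp3 gives the same protein affinity for adrenomedullin. Calcrl itself was low, at 23.2 CPM in ILC2 (35 UMIs, read in 6.76% of the cells) and 24.3 CPM in ILC3. Ramp3 had 384 CPM in ILC2, close to 349 CPM in ILC3 and 347 CPM in IELs. Ramp1 had 329.5 CPM in ILC2, against 846 CPM in IELs and 466 CPM in ILC3. Calca, which encodes the ligand CGRP, had 574 CPM in ILC2 and at most 31.3 CPM (IELs).

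Of the 25 transcription factors listed, 5 were highest in ILC2. Gata3 and Nfkb1, an NF-κB subunit needed for type 2 lymphocyte responses, were among them, with Nfkb1 at 1253 CPM, against 584 CPM in IELs. Rora, a factor required for ILC2 development, had 1098 CPM in ILC2 and 1184 CPM in ILC3, and Id2, which all innate lymphoid cells use, had 618 CPM in ILC2 and 762 CPM in ILC3. Tcf7, which early progenitors and naive T cells use, had its lowest level in ILC2, at 45.0 CPM, against 119 to 356 CPM in the others.

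Of the 19 secreted effectors listed, 13 were highest in ILC2, among them Il9 with 8 UMIs and Il6 with 16 UMIs. Il13, which drives mucus and smooth muscle responses, was read in 37.6% of ILC2 and had 756 CPM, against at most 76.6 CPM (Proliferative); in the 8 mice it lay at 206 to 2510 CPM in ILC2. Areg, which encodes amphiregulin, was read in 46.9% of ILC2 and had 1476 CPM, against 307 CPM in IELs and 281 CPM in Tregs. Areg is also an epithelial gene, read in 23.3% of epithelial cells and in 2.42% of B cells. Il4 had 72.1 CPM in ILC2, against at most 12.6 CPM (Tregs), and Ccl1, a chemokine for CCR8, had 341 CPM, against at most 41.3 CPM (Proliferative). Csf2, which encodes GM-CSF, had 192 CPM in ILC2, against 126 CPM in ILC3, and Lif had 234 CPM, against 184 CPM in ILC3. Arg1, the arginase of activated ILC2, had 206 CPM in ILC2 and 223 CPM in ILC3. Summed over the 19 genes, effectors made up 5206 CPM in ILC2 and 134.5 to 1669 CPM in the other subtypes. Il9 was read in 1 ILC2, a cell of mouse 3 with 8 UMIs, and Il10 in 1 UMI.

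Homing genes were mostly shared. Of the 20 listed, 4 were highest in ILC2, among them Cd69, a marker of tissue residency, at 574 CPM, against 518 CPM in Inactive cells. Cxcr6, a chemokine receptor of resident lymphocytes, had 632 CPM in ILC2 and 1269 CPM in IELs, and Itgb7, a subunit of the gut-homing integrin, had 429 CPM in ILC2, second to IELs. S1pr1, the receptor by which recirculating lymphocytes leave tissue, had 15.2 CPM in ILC2.

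Ranked over all genes read in at least 10% of ILC2, the 20 genes with the largest log2 ratio of ILC2 over the highest other subtype (10 CPM added to both) began with Calca (3.82), Hs3st1 (3.56), Il13 (3.14), Il17rb (2.95), Ccl1 (2.77), Il1rl1 (2.71) and Il5 (2.63). Then came Slc7a8 (2.60), Ptpn13 (2.50), Hes1 (2.47), Apbb2 (2.29), Deptor (2.28), Areg (2.23), Il9r (2.18), Stab2 (2.17), Ptgir (2.13), Klrg1 (2.06), Lpcat2 (2.00), Gata3 (1.97) and Dmxl2 (1.97). Hs3st1, an enzyme that sulfates heparan chains, had 455 CPM in ILC2 and at most 29.5 CPM elsewhere. Hes1, a Notch target, had 474 CPM in ILC2 and at most 77.6 CPM (ILC3). Deptor, an inhibitor of mTOR, had 109 CPM in ILC2 and at most 14.6 CPM (ILC3). These genes therefore include metabolic and signalling genes beside the known ILC2 effectors and receptors. A separate ranking, with no limit on the share of ILC2 in which a gene was read, took the 10 genes with the lowest log2 ratio of ILC2 over the lowest other subtype. They were Ipcef1, Plcxd2, Socs3, Ctsw, Gimap4, Cenpa, Tnfrsf1a, Tcf7, Hopx and Dbf4, each lower in ILC2 than in any other subtype. Socs3, a brake on STAT3, had 7.94 CPM in ILC2 and 60.1 to 194 CPM in the others, and Ctsw, a protease of cytotoxic cells, had 19.9 CPM in ILC2 and 78.6 to 905 CPM in the others.

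Defining markers of other lineages were scarce, while several genes shared between lymphocytes were not. Il22, a cytokine of ILC3, was at 1 UMI in all ILC2 (4459 CPM in ILC3), and Il23r, Eomes, Ncr1, Klrb1c, Ifng and Xcl1 at 0. Cd3e had 11.9 CPM and Trac 26.5 CPM in ILC2, against 330 and 180 CPM in IELs. Trbc1 was read in 71.2% of ILC2 at 658 CPM and Trbc2 in 63.4% at 508 CPM, against 732 and 860 CPM in IELs and 795 and 542 CPM in ILC1-NK; in B cells both were read in 0.980 and 1.32% of cells. At least 1 UMI of Cd3d, Cd3e or Trac was found in 34 of the 503 ILC2, 7 of them among the 20 ILC2 of mouse 2. Among ILC3 markers, Kit had 275 CPM in ILC2, its highest level in the class, against 247.5 CPM in ILC3. That rank rests on the 10 cells with mast cell or basophil transcripts described below, which held 58 of its 415 UMIs. The other 493 ILC2 had 242 CPM of Kit, below ILC3. Tmem176a and Tmem176b were each read in 68.8% of ILC2. The ILC3 list summed to 2115 CPM in ILC2, against 8937 CPM in ILC3. Igkc, the antibody κ chain, was read in 50.7% of ILC2 and in 39.4 to 59.2% of the other subtypes, and Nkg7, a cytotoxic granule gene, in 30.0% of ILC2 and 88.6% of ILC1-NK. Immediate early and dissociation stress genes summed to 22630 CPM in ILC2, near ILC3 (25160 CPM) and above the other subtypes (4859 to 14730 CPM); their part in the levels above was not tested. Proliferation genes summed to 785 CPM in ILC2, within the range of the other subtypes apart from Proliferative (548 to 1097 CPM), with Mki67 at 11 UMIs and Birc5 at 0. The authors gave a Proliferative subtype its own name, in which Gata3 was read in 55.1% of cells, so the level of cycling genes under the ILC2 name depends on that naming.

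Inside the label, 10 cells carried mast cell or basophil transcripts. They held 17 to 305 UMIs of 9 mast cell and basophil genes, and the other 493 ILC2 held 0. Cpa3, a mast cell carboxypeptidase, and Gata2, a factor of mast cells and basophils, were read in all 10. Mcpt8, a basophil protease, and Cma1, a mast cell protease, were read in 9 each, Mcpt2 in 4 and Mcpt1 in 3. Gzmb, which encodes granzyme B, held 517 UMIs in these 10 cells and 1 UMI in the other 493. Gata3, Il17rb, Il5 and Areg were read in 0 of the 10 cells, while Il1rl1 was read in 8 and Il13 in 8. The defining transcripts of these cells go against the ILC2 name. KO-labelled mice gave 4 of them among 328 ILC2, and WT-labelled mice 6 among 175. Their median depth was 4094 UMIs, against 2867 UMIs in the other 493. Hdc and Gata2 are named below in the comparison of genotypes, with fold changes that include these cells. The count of genes that passed is given with and without them.

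A second set of cells inside the label held Il17a, which encodes the cytokine interleukin-17A. It was read in 32 ILC2, of which 24 held at least 5 UMIs, and 0 of the 32 had a UMI of Il23r, a chain of the interleukin-23 receptor. Gata3 was read in 24 of these 32 cells and Il17rb in 21 (65.6%). Il17rb was read in 37.1% of the 461 ILC2 with neither Il17a nor the 9 mast cell and basophil genes. Il1rl1 was read in 4 of the 32 (12.5%), against 61.8% of the 461, and Il13 in 23 (71.9%), against 34.3%. Hs3st1 was read in 1 of the 32, against 43.4% of the 461. Cd3 chains and Trac were read more often in the 32 than in the 461. Cd3g was read in 13 of the 32 (40.6%), against 11.3% of the 461, and Cd3d in 15.6%, against 3.90%. Cd3e was read in 12.5%, against 1.52%, and Trac in 15.6%, against 3.47%. Other T cell receptor genes were read less often or about equally: Trbc1 in 31.2%, against 74.8%, Trbc2 in 62.5%, against 64.6%, and Tcrg-C1 in 9.38%, against 32.3%. Median depth was 3187 UMIs in the 32 and 2832 UMIs in the 461, and its part in these shares was not tested. By mouse they were 3 of 20, 6 of 38, 0 of 92 and 1 of 178 ILC2 in KO-labelled mice 2, 3, 6 and 7, against 13 of 39, 3 of 56, 1 of 58 and 5 of 22 in WT-labelled mice 1, 4, 5 and 8. The groups overlapped, and 25 of the 32 cells came from mice 1 to 4, so the shares above compare different mixes of mice. In the 5 mice with at least 3 such cells, Il1rl1 was read in 13.3% of 30 Il17a cells, against 60.3% of 141 others, and was lower in the Il17a cells in 5 of 5 mice. Il13 was read there in 70.0%, against 36.9% of the others, and was higher in 5 of 5 mice, as was Cd3g at 40.0%, against 12.8%. Trbc1 at 30.0%, against 75.2%, and Hs3st1 at 0%, against 32.6%, were lower in 5 of 5 mice. Il17rb was read in 66.7%, against 51.1%, and was higher in 3 of 5 mice and lower in 2, so its difference depended on the mouse. Pooled Il17a was 335.5 CPM in ILC2, 1247 CPM in IELs and 4.85 CPM in ILC3. The cells were picked by their values, so these shares carry no test.

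**Figure D2:**
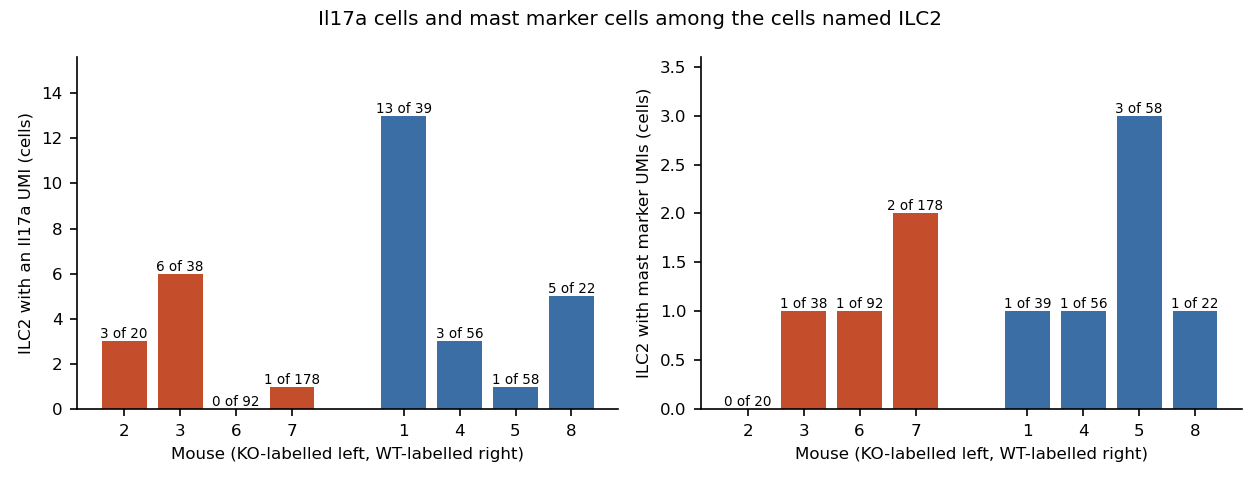
Number of cells named ILC2 with at least 1 Il17a UMI (left) and with mast marker UMIs (right) in each mouse, KO-labelled mice left of WT-labelled mice, with the number of ILC2 of the mouse above each bar. The highest bar is 13 of 39 ILC2 in WT-labelled mouse 1 for Il17a and 3 of 58 in WT-labelled mouse 5 for mast markers.

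Cytokine transcripts were concentrated in few cells. The 10 ILC2 with the most UMIs of a gene held 40.5% of all Il13 UMIs in ILC2, 43.4% of Il5, 43.5% of Ccl1, 72.4% of Il17a, 23.0% of Areg and 20.6% of Calca. A cell of KO-labelled mouse 3 with 3694 UMIs held the most Il17a (175 UMIs), the most Il13 (120) and the most Il5 (49) of any ILC2, together with 5 UMIs of Gata3 and 2 of Trac. Il5 and Il13 were read together in 54 ILC2, Il5 without Il13 in 42 and Il13 without Il5 in 135. Il13 was thus read in 56.2% of the 96 ILC2 with Il5 and in 33.2% of the 407 without it. The cells with both were also deeper, with a median of 3598 UMIs, against 2913 UMIs with Il5 alone, 2992 UMIs with Il13 alone and 2712 UMIs with neither; the part of depth in the overlap was not tested.

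The design asks whether the colon's cells differ when Sprouty2 is deleted in the epithelium, and for ILC2 this concerns their number and their transcripts. ILC2 made up 0.276, 0.515, 1.498 and 3.264% of all cells in KO-labelled mice 2, 3, 6 and 7, against 0.567, 0.554, 0.883 and 0.666% in WT-labelled mice 1, 4, 5 and 8. The KO-labelled mice lay both below and above the WT-labelled mice, and mouse 7 alone gave 178 of their 328 ILC2. The exact 95% binomial intervals, which cover counting error only, were 0.168 to 0.425% in mouse 2 and 2.81 to 3.77% in mouse 7. Means were 1.39 ± 1.36% over the KO-labelled mice, against 0.668 ± 0.152% over the WT-labelled mice (SD, n = 4 each), and the two-sided exact permutation test gave p = 0.429 (0.914 after adjustment over 12 shares; at the smallest p of 70 assignments, 0.0286, a share alone would reach 0.343). Within mice 1 to 4 the difference, KO-labelled minus WT-labelled, was −0.165 percentage points, within mice 5 to 8 it was 1.61, and without mouse 7 it was 0.0952, against 0.720 over all mice. As a share of the T cells class without doublets, ILC2 were 9.42 ± 6.66% in KO-labelled mice, against 8.81 ± 2.82% in WT-labelled ones (p = 0.914 by exact permutation). Of the named innate lymphoid cells they were 50.5 ± 16.2% in KO-labelled mice, against 49.9 ± 11.6% in WT-labelled ones (p = 0.943 by exact permutation). Removal of annexin V binding cells stands before every share, and its part was not tested.

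**Figure D3:**
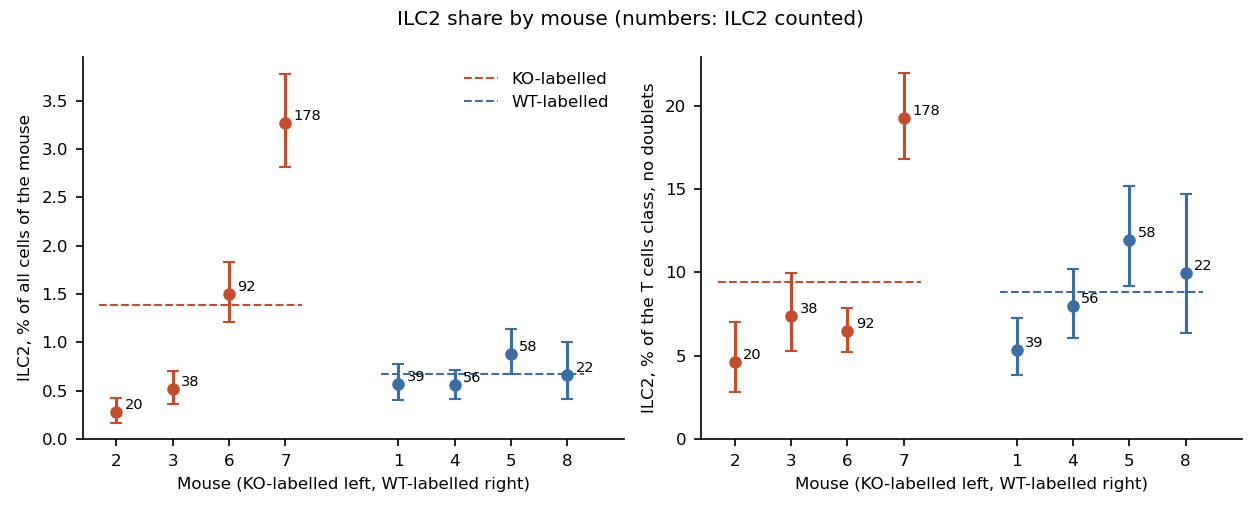
ILC2 as a percentage of all cells (left) and of the T cells class without doublets (right) in each mouse, KO-labelled mice left of WT-labelled mice. Points carry exact 95% binomial intervals, printed numbers are ILC2 counted, and dashed lines are group means; mouse 7 stands highest in both panels, at 3.26 and 19.3%.

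Median UMIs per ILC2 averaged 3075 ± 506 in KO-labelled mice, against 2844 ± 245 in WT-labelled ones (SD over 4 mice each; p = 0.514 by exact permutation). Median genes per ILC2 averaged 1348 in KO-labelled mice, against 1301 in WT-labelled ones (p = 0.571 by exact permutation), so neither difference in depth passed.

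In the ILC2 sums no gene passed edgeR's quasi-likelihood test between genotypes at an adjusted p of 0.05: 0 of 2162 genes tested (0.0%), with 94 at an unadjusted p under 0.05 (4.35%; 2.08% higher and 2.27% lower in KO-labelled mice). DESeq2 called 0 genes as well, with 118 at an unadjusted p under 0.05. Without a filter on low counts edgeR called 33 of 13068 genes, 12 higher and 21 lower in KO-labelled mice. Among the lower ones were the mast cell and basophil genes Mcpt1, Mcpt2, Mcpt8, Cma1, Gata2 and Hdc. With the filter edgeR called 0 of 2162 with the 10 mast marker cells and 0 of 2100 without them. The fit without a filter was not run without those cells, so their part in the 33 calls was not tested. Log2 fold changes below are KO-labelled over WT-labelled with their standard error, and adjusted p was 0.9998 for each of them unless another value is given.

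The markers did not separate the groups. Gata3 had 558, 901, 787 and 914.5 CPM in ILC2 of KO-labelled mice 2, 3, 6 and 7, against 1007, 864, 963 and 613 CPM in WT-labelled mice 1, 4, 5 and 8 (log2 fold change −0.12 ± 0.23). The lowest value was that of mouse 2 and the groups overlapped. Il1rl1 had 485, 606.5, 341 and 454 CPM in KO-labelled mice, against 385, 292, 542 and 261 CPM in WT-labelled mice (0.30 ± 0.27). Il17rb had 499.5, 413, 143 and 106 CPM in KO-labelled mice, against 504, 262, 168 and 291 CPM in WT-labelled mice (−0.22 ± 0.47). For Il17rb the low values were those of mice 6, 7 and 5 and the high ones those of mice 1, 2 and 3, so both genotypes were at both ends.

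For the type 2 cytokines Il5 and Il13, mouse 3 stood apart. Il5 had 132, 809, 88.7 and 92.6 CPM in KO-labelled mice 2, 3, 6 and 7, against 82.4, 250.4, 232 and 138 CPM in WT-labelled mice 1, 4, 5 and 8 (log2 fold change 0.45 ± 0.64). Il13 had 206, 2510, 352 and 842 CPM in KO-labelled mice, against 513, 405, 816 and 843 CPM in WT-labelled mice (0.59 ± 0.54). Mouse 3 stood far above the rest for both genes. The cell with 175 Il17a UMIs gave 49 of the 96 Il5 UMIs and 120 of the 298 Il13 UMIs of mouse 3; without it mouse 3 had 409 CPM of Il5 and 1547 CPM of Il13. The fold changes were then −0.21 for Il5 and 0.20 for Il13, and without mouse 3 −0.91 and −0.33, so the direction of both genes turned without mouse 3, and that of Il5 without the cell. Il4 had 58.8, 67.4, 68.7 and 74.5 CPM in KO-labelled mice, against 54.95, 65.6, 78.9 and 123 CPM in WT-labelled mice, and was below the filter of the test.

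Of the 11 effectors tested, Il5 and Il13 included, 3 others had an unadjusted p under 0.05, and none passed. Over all 2162 genes tested 94 had such a p (4.35%). Ccl1 had 103, 84.2, 495 and 594 CPM in KO-labelled mice 2, 3, 6 and 7, against 18.3, 53.6, 268 and 0 CPM in WT-labelled mice 1, 4, 5 and 8 (1.77 ± 0.71; unadjusted p = 0.0268 in edgeR). Csf2 had 44.1, 75.8, 283 and 293.5 CPM in KO-labelled mice, against 18.3, 59.6, 142 and 153 CPM in WT-labelled mice (1.16 ± 0.53; unadjusted p = 0.0459). Both genes were high in mice 6 and 7, the groups overlapped, and mouse 5 stood highest for Ccl1 and mouse 8 for Csf2 among the WT-labelled mice. Furin, a protease that matures precursors such as that of TGF-β, had 793, 749.7, 609.6 and 908 CPM in KO-labelled mice, against 421, 596, 652.5 and 368 CPM in WT-labelled mice (0.56 ± 0.24; unadjusted p = 0.0363). Calca had 749, 1070, 444 and 643.5 CPM in KO-labelled mice, against 485, 769, 221 and 383 CPM in WT-labelled mice (0.61 ± 0.35). Areg had 823, 1280, 1958 and 1615 CPM in KO-labelled mice, against 430.4, 1043, 1505 and 1763 CPM in WT-labelled mice (0.30 ± 0.35). All these groups overlapped. Of the 19 effectors 11 passed the filter on low counts, all 11 with a positive fold change and a median of 0.59; over all 2162 genes 1081 were positive and 1081 negative, with a median of −2.56e-05. The direction of Il5 and Il13 within that count rests on mouse 3, as given above, and that of Tgfb1 turned without mouse 4, 7 or 8. Effectors below the filter had both directions. Mean CPM of Il4, Tnf and Tph1 was lower in KO-labelled mice, and that of Il6, Il9, Il10, Penk and Hbegf was higher. The thinned shares of ILC2 with an Il5 or Il13 UMI, given below, were lower in KO-labelled mice.

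**Figure D4:**
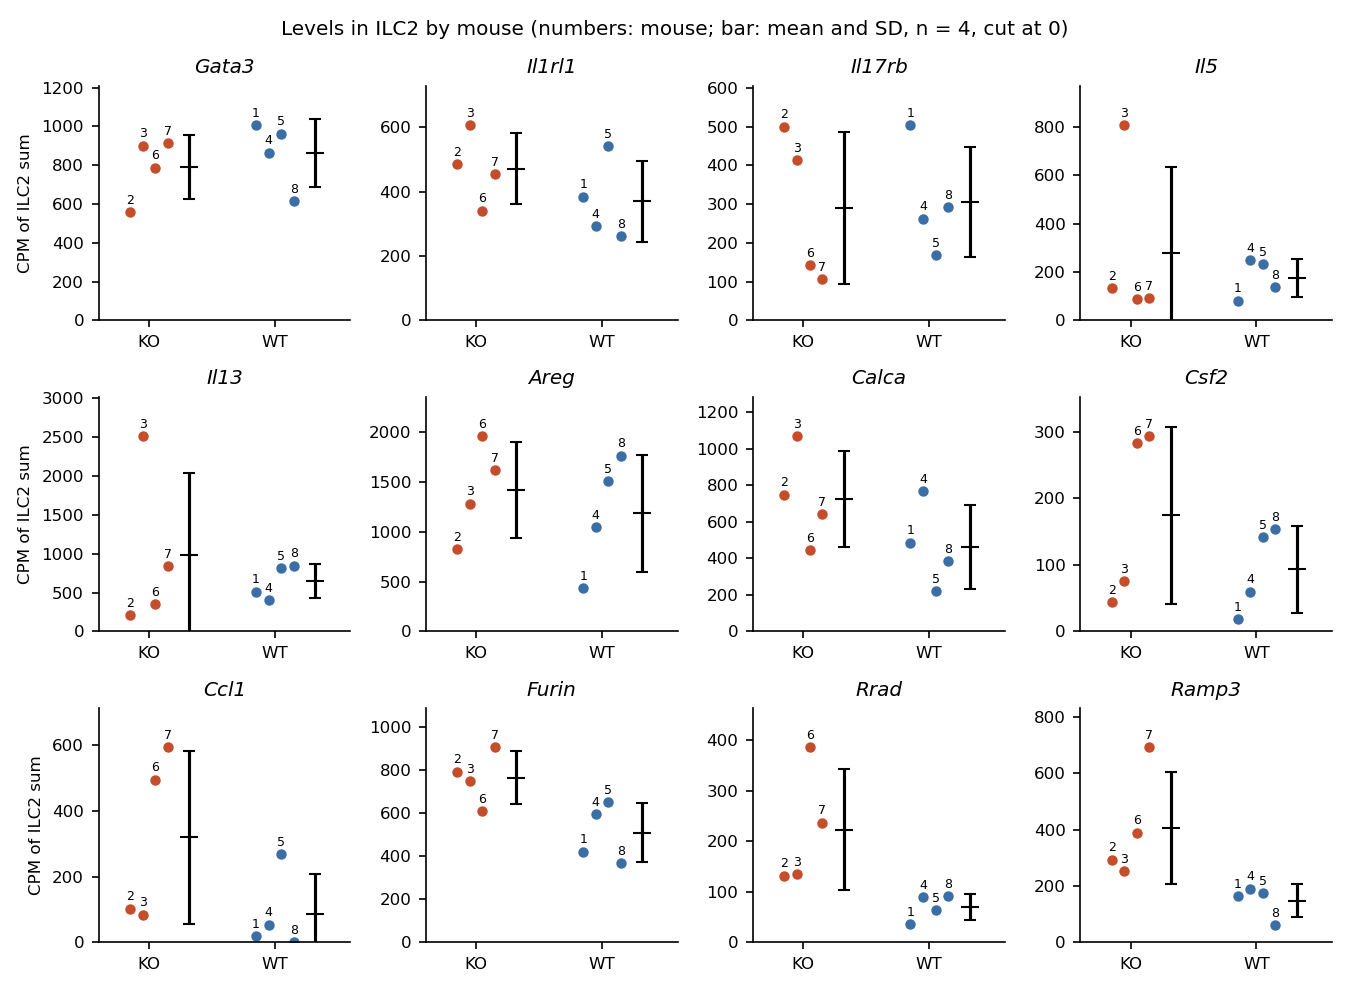
CPM in the ILC2 sum of each mouse (numbered points) for the 4 markers, 6 further effectors, Rrad and Ramp3, KO-labelled mice left of WT-labelled mice, with the mean and SD of 4 mice as a bar beside each group (cut at 0 where it would go below). Mouse 3 stands alone for Il5 and Il13, and the groups do not overlap for Rrad and Ramp3, as in 3.28% of the 2162 genes tested.

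Of the activating receptors 14 of 22 were tested, 11 with a positive and 3 with a negative fold change, and the median was 0.12. Cysltr1 had 235, 185, 272 and 296 CPM in KO-labelled mice 2, 3, 6 and 7, against 109.9, 203, 184 and 123 CPM in WT-labelled mice 1, 4, 5 and 8 (0.65 ± 0.27; unadjusted p = 0.0284 in edgeR). The groups overlapped at mice 3 and 4. Inhibitory receptors and brakes had 14 of 22 tested, 12 positive and 2 negative, with a median of 0.16. In that list Socs1, a brake on JAK signalling, had 29.4, 177, 229 and 339 CPM in KO-labelled mice, against 64.1, 71.5, 116 and 107 CPM in WT-labelled mice (1.28 ± 0.42; unadjusted p = 0.0085), with mouse 2 below every WT-labelled mouse. Il10ra had 88.2, 135, 88.7 and 113 CPM in KO-labelled mice, against 54.95, 65.6, 84.2 and 76.6 CPM in WT-labelled mice (0.57 ± 0.27), without overlap; the groups did not overlap in 71 of the 2162 genes tested (3.28%; 1.9% higher and 1.39% lower in KO-labelled mice). Transcription factors had 15 of 25 tested, 5 positive and 10 negative, with a median of −0.08. Id2 was the member with an unadjusted p under 0.05, at 382, 632, 598 and 537 CPM in KO-labelled mice, against 842.5, 614, 668 and 981 CPM in WT-labelled mice (−0.49 ± 0.21). Mouse 3 lay above WT-labelled mouse 4, so the groups overlapped there. ERK pathway feedback genes, which Sprouty proteins oppose, had 5 of 16 tested, 3 positive and 2 negative, with a median of 0.15. The 2 negative ones, Egr1 and Ier3, had an unadjusted p under 0.05, as had 4.35% of all 2162 genes tested. Both are given with the immediate early genes, a list that also holds them. Spry1, which encodes another Sprouty, had 58.8, 168.5, 71.5 and 90.3 CPM in KO-labelled mice, against 82.4, 41.7, 137 and 61.3 CPM in WT-labelled mice (0.15 ± 0.39), with mouse 3 highest and mouse 4 lowest.

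The remaining lists gave no member that passed. Homing genes had 10 of 20 tested, 6 positive and 4 negative, with a median of 0.02. Immediate early and dissociation stress genes had 17 of 18 tested, 9 positive and 8 negative, with a median of 0.08, and their sum lay at 14970 to 26780 CPM in KO-labelled mice, against 15280 to 24190 CPM in WT-labelled mice. Egr1, an immediate early transcription factor, had 88.2, 118, 220 and 418 CPM in KO-labelled mice 2, 3, 6 and 7, against 284, 453, 463 and 444.5 CPM in WT-labelled mice 1, 4, 5 and 8 (−0.82 ± 0.37; unadjusted p = 0.042 in edgeR). Its groups overlapped at mouse 7 and mouse 1. Atf3, a stress-induced transcription factor, had 235, 219, 332 and 494.5 CPM in KO-labelled mice, against 27.5, 215, 210.5 and 107 CPM in WT-labelled mice (1.15 ± 0.42; unadjusted p = 0.016). Atf3 was higher in every KO-labelled mouse than in any WT-labelled mouse, but mouse 3 at 219 CPM was close to mouse 4 at 215 CPM. Groups without overlap were found in 71 of the 2162 genes tested (3.28%). Ier3, another early response gene, had 14.7, 185, 114.5 and 165 CPM in KO-labelled mice, against 366, 53.6, 321 and 414 CPM in WT-labelled mice (−1.06 ± 0.49; unadjusted p = 0.0484), and its groups overlapped. These 3 genes, of 17 tested, are the members with an unadjusted p under 0.05, and they had both signs. Over all 2162 genes tested 94 had such a p (4.35%). Of markers of other cells, ILC3 had 6 of 11 tested (2 positive, 4 negative), ILC1 and NK cells 3 of 13 (2 and 1), the T cell receptor complex 4 of 13 (3 and 1) and regulatory T cells 4 of 7 (2 and 2). Epithelial markers had 3 of 9 tested and mast cell and basophil markers 2 of 10, all negative, with medians of −1.12 and −1.53. Proliferation genes had 2 of 16 tested, both positive. B and plasma cell markers had 1 of 9 tested, positive at 0.80, with sums of 294 to 1549 CPM in KO-labelled mice, against 184 to 656 CPM in WT-labelled mice. Macrophage and dendritic markers and MHC class II genes had 1 gene tested each, negative at −0.14 in both lists, and fibroblast markers had 0 of 7 tested.

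Genes with the smallest unadjusted p were, on the higher side, Rrad, Ipmk, Ramp3, Ezr, Sfr1, Ets2, Gm12840 and Nudt4. Rrad, a small GTPase, had 132, 135, 386 and 237 CPM in KO-labelled mice 2, 3, 6 and 7, against 36.6, 89.4, 63.2 and 92.0 CPM in WT-labelled mice 1, 4, 5 and 8 (log2 fold change 1.79 ± 0.39, adjusted p = 0.854). Ramp3 had 294, 253, 389 and 693 CPM in KO-labelled mice, against 165, 191, 174 and 61.3 CPM in WT-labelled mice (1.43 ± 0.36, adjusted p = 0.854). Every KO-labelled mouse lay above every WT-labelled mouse for both genes. They were picked by their p, and the groups did not overlap in 71 of the 2162 genes tested (3.28%). Ipmk, an inositol polyphosphate kinase, had 426, 219, 203 and 395 CPM in KO-labelled mice, against 91.6, 137, 137 and 123 CPM in WT-labelled mice (1.30 ± 0.30, adjusted p = 0.854). Ezr, Sfr1, Ets2, Gm12840 and Nudt4 had log2 fold changes of 0.91, 0.93, 1.02, 1.22 and 1.10 (adjusted p = 0.854 for Ezr, Sfr1 and Ets2 and 0.877 for Gm12840). On the lower side were Hdc (−2.21), Gm26870 (−1.09), Il17f (−3.17), Ubr2 (−0.93), Cox17 (−0.88), Gm47283 (−1.05), Gatad2a (−0.83) and Gata2 (−2.30). Hdc, the histamine-forming enzyme, and Gata2 were read mainly in the 10 mast marker cells, which held 54 and 113 of their UMIs, against 10 and 0 in the other ILC2. Il17f had 73.5, 59.0, 0 and 4.52 CPM in KO-labelled mice 2, 3, 6 and 7, against 183, 125, 0 and 429 CPM in WT-labelled mice 1, 4, 5 and 8. Mice 8, 1 and 4 lay above every KO-labelled mouse, and WT-labelled mouse 5 was at 0, so the groups overlapped. Of the 83 Il17f UMIs in ILC2, 67 lay in the 32 Il17a cells, which were spread unevenly over the mice. Mast cell and basophil genes summed over the list lay at 0 to 244 CPM in ILC2 sums of KO-labelled mice, against 137 to 2394 CPM in those of WT-labelled mice. Epithelial markers lay at 187 to 602 CPM in those of KO-labelled mice, against 331.5 to 954 CPM in those of WT-labelled mice; their part in these differences was not tested.

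**Figure D5:**
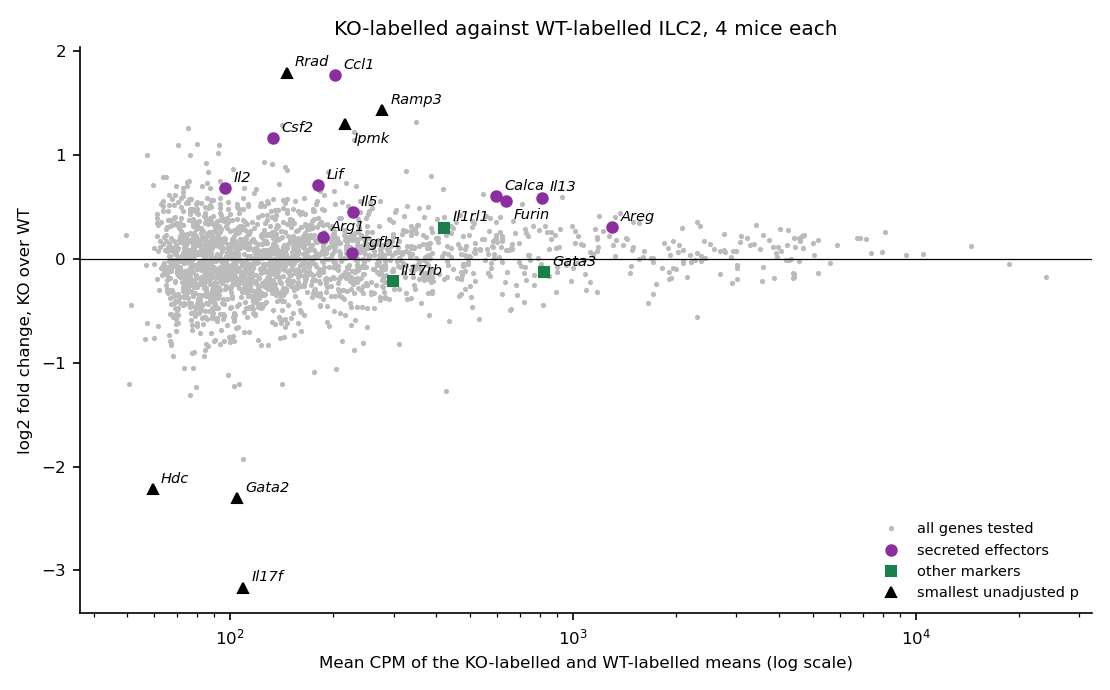
Log2 fold change, KO-labelled over WT-labelled, against the mean CPM of the group means (log axis) for the 2162 genes tested in ILC2 sums, with secreted effectors, the other markers and 6 genes of small unadjusted p named. The 11 effectors lie above 0, Gata3 and Il17rb below it, and no gene passed an adjusted p of 0.05.

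The genotype difference in ILC2 was also set against that in all other cells of the T cells class from the same mice. The interaction passed in 0 of 2162 genes (0.0%) by edgeR, with 84 at an unadjusted p under 0.05 (3.89%), and DESeq2 gave 0 and 45. The 4 genes with the smallest p on the higher side were Ipmk, Rrad, Nudt4 and Fam46a. For Ipmk the log2 fold change was 1.30 in ILC2 and −0.34 in the other cells (difference 1.62 ± 0.32, adjusted p = 0.271). For Rrad it was 1.79 in ILC2 and 0.17 in the other cells (difference 1.69 ± 0.37, adjusted p = 0.385). On the lower side were Txndc17, Ppp2r2a, Gzmb and Smc6, of which Gzmb rests on the mast marker cells within ILC2.

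Shares of ILC2 with a cytokine UMI were compared after each cell was thinned to 1000 UMIs, which kept 318 cells of KO-labelled and 172 of WT-labelled mice. Calca was read in 25.0, 48.6, 18.5 and 24.9% of ILC2 in KO-labelled mice 2, 3, 6 and 7, against 21.1, 29.6, 12.1 and 22.7% in WT-labelled mice 1, 4, 5 and 8, with mouse 3 highest. Its mean was 29.2 ± 13.3% of ILC2 in KO-labelled mice, against 21.4 ± 7.23% in WT-labelled ones (SD over 4 mice each; p = 0.429 by exact permutation). Il13 was read in 19.7 ± 8.01% in KO-labelled mice, against 25.6 ± 7.04% in WT-labelled ones (p = 0.314 by exact permutation). Csf2 was read in 10.8 ± 5.12% in KO-labelled mice, against 5.63 ± 5.76% in WT-labelled ones (p = 0.2 by exact permutation). Il5 was read in 13.7 ± 12.6% in KO-labelled mice, against 14.1 ± 2.79% in WT-labelled ones (p = 0.971 by exact permutation), with mouse 3 at 32.4%. None of 10 genes passed, and the smallest adjusted p was 0.735; the smallest p the 70 assignments allow would become 0.286 for a gene alone. These shares move between random draws, so the mean over all possible draws was computed as well. By that mean Calca was read in 32.4 ± 12.3% of ILC2 in KO-labelled mice, against 19.3 ± 7.70% in WT-labelled ones (p = 0.114 by exact permutation, adjusted p = 0.762). Il13 was read by that mean in 22.1 ± 6.54% in KO-labelled mice, against 29.1 ± 8.36% in WT-labelled ones (p = 0.229 by exact permutation).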

How the data were processed

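Single cells of distal colonic mucosa from 8 mice were measured by 10x Chromium 3′ sequencing; Cell Ranger 3.0.2 and mm10 are named per the submitters' processing notes, while tools for cell filter, clusters and names were not given in the sources used here. Values deposited in the matrix are raw counts (UMIs), not normalised. Each cell's size factor, a ratio of its total to the geometric mean of totals, was deposited by the authors with the authors' classes and subtypes. Sorted by mouse and barcode, the table matched the matrix in 53080 of 53080 size factors (tolerance 1e-06), and in table order in 16.

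ILC2 are the cells of class T cells and subtype ILC2. They, the 18 gene lists (243 genes, all found) and the tests were chosen with earlier results of these data known. The named genes are the 4 markers, list members, the 8 genes in each direction with the smallest unadjusted p (4 for the interaction), and the 20 highest and 10 lowest genes of ILC2 by log2 ratio to the other subtypes with a pseudocount of 10 CPM. The mast marker cells, the Il17a cells and the cell with most Il17a UMIs were chosen after their values were seen.

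Counts were summed over the ILC2 of a mouse (at least 20 cells; 20 to 178) and tested with edgeR 4.0.16 in R 4.3.3 (TMM factors, filterByExpr, quasi-likelihood F test, Benjamini-Hochberg over all genes tested, threshold 0.05), with limma 3.58.1 loaded by it. CPM in the text are of plain sums. The interaction was fitted over ILC2 and other T class sums with mouse as a block. Shares and medians used two-sided exact permutation tests over 70 assignments, or fewer where a mouse was left out. Cells named doublets by the authors were left out of sums and kept in the denominator of all cells; no doublet caller was run. Alternatives were DESeq2 1.42.0, other filters, a covariate, other cell sets and each mouse left out. Both fits were tested on simulated data. Other steps ran in Python 3.11.15 with pandas 2.3.3, numpy 2.4.6, matplotlib 3.10.9 and scipy 1.17.1. Gene positions are from GENCODE M21 and windows from RefSeq GRCm38.p6. Sums of 65242 to 442859 UMIs per mouse limit the precision. Results for some genes of the lists are not reported here.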

Additional observations from a re-analysis of the deposited data

Results flagged for a closer look

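Groups of 4 mice were searched for a value far from the other 3, as the gap to the nearest value over the whole range, against Dixon's 95% critical value. Of 110 groups 7 stood out, where chance gives about 1 in 20, and 5 of the 7 were KO-labelled mouse 3. Il5 in ILC2 of mouse 3 had 809 CPM (gap 0.94 of the range), and its thinned share of ILC2 with an Il5 UMI was 32.4% (0.846). Of the 96 Il5 UMIs of mouse 3, 49 lay in 1 cell. Ezr was highest in mouse 3 among the KO-labelled mice at 211 CPM (0.933), Hdc highest at 92.7 CPM (0.903) and Gm12840 lowest at 160 CPM (0.851). Hdc was lowest in mouse 4 among the WT-labelled mice at 35.8 CPM (0.894). The IEL share of KO-labelled mouse 7 was 2.57% of its cells (0.90), the mouse whose ILC2 share was also the highest.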

How the results depend on the processing

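No paired analysis was possible because the groups share no mouse number. The ILC2 share difference, KO-labelled minus WT-labelled, was −0.165 within mice 1 to 4 and 0.0952 to 1.09 with each mouse left out. For the share of ILC2 with a cytokine UMI, the Il4 difference was 1.10 at 2000 UMIs per cell. The Lif difference was 2.37 unthinned, 11.7 at 2000 UMIs (exact permutation p = 0.0286) and 2.43 as the mean over all draws, against −0.0064 in the draw used. At 2000 UMIs mouse 2 dropped out for every gene. That p for Lif is the smallest that 3 against 4 mice allow and was not adjusted over the 10 genes. With each mouse left out the differences ran from −6.58 to 2.26 for Il5, −1.44 to 3.73 for Il2 and −3.88 to 3.87 for Lif. The count of genes between genotypes was 33 without a filter on low counts and 0 to 1 with each mouse left out; the 1 gene was Ifitm1, lower in KO-labelled mice, without mouse 4. In the same setting without a filter, Csf2, Ccl1, Rrad, Ipmk, Ramp3 and Gm12840 passed on the higher side. Hdc, Il17f and Gata2 passed on the lower side. So did the list members Socs1, Atf3 and Ccl5 (higher) and Gzmb, Krt19, Cma1, Mcpt1, Mcpt2 and Mcpt8 (lower). The cause was not tested. Mouse 6 held 73 of the 91 Ccl5 UMIs in ILC2. For Mcpt1 1 cell held 130 of 149 UMIs, and for Mcpt2 1 cell held 139 of 154. Log2 fold changes ran from −0.25 to 0.0096 for Gata3, −0.58 to 0.15 for Il17rb, −0.91 to 0.83 for Il5, −0.33 to 0.92 for Il13 and −0.087 to 0.30 for Tgfb1 with each mouse left out. That of Il5 was −0.16 without cells holding Cd3d, Cd3e or Trac (where mouse 2 also drops out) and −0.21 without the cell of most Il17a UMIs. The remaining alternatives, 52 for the shares, depths and counts and 235 for the markers, effectors and genes of smallest p, kept direction and side of the threshold. The planned set of ILC2 without any T cell receptor UMI could not be fitted, since only mouse 7 kept at least 20 such cells. Sets without the mast marker cells, without cells holding Cd3d, Cd3e or Trac, without the cell of most Il17a UMIs, and the mean over all draws were added after seeing the data. Mouse 2, with 20 ILC2 and 68068 UMIs, and mouse 8, with 22 and 65242, limit every comparison.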

Other observations

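Several genes varied between mice without following genotype. Ramp1, the CGRP receptor accessory protein, had 117.5, 84.2, 441 and 490.0 CPM in ILC2 of KO-labelled mice 2, 3, 6 and 7, against 128, 167, 305 and 138 CPM in WT-labelled mice 1, 4, 5 and 8. Il2, the T cell growth factor, had 44.1, 33.7, 183 and 208 CPM in KO-labelled mice, against 27.5, 83.5, 163 and 30.7 CPM in WT-labelled mice. Zeb2, a transcription factor of terminal lymphocyte states, had 176, 446, 22.9 and 51.9 CPM in KO-labelled mice, against 330, 167, 142 and 506 CPM in WT-labelled mice. Mice 5, 6 and 7, of both genotypes, were the highest for Ramp1 and Il2 and the lowest for Zeb2 and Il17rb. Of these, Ramp1 (log2 fold change 0.70), Il2 (0.68) and Zeb2 (−0.88) did not pass between genotypes (adjusted p = 0.9998 each, edgeR). The mice were picked here by their values, and no test was made.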
